A study of Mus musculus with 15 samples.

Results

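Mouse embryonic fibroblasts (MEFs) in which the Fosl2 gene had been switched on a few days earlier were set directly against MEFs treated with an inhibitor of Ezh2, by the openness of their chromatin. The comparison takes 3 early Fra2 libraries and 3 Ezh2 inhibitor libraries, chosen by their labels, which are 6 of the 15 libraries in the series. It holds no control library of its own. Early Fra2 cells carried a CRISPR activation construct (CRISPRa-VPR-mCherry, a guide-directed activator of the targeted gene with a red reporter), received lentiviral Fra2 guides, and were sorted for mCherry and the fibroblast surface protein THY1. Their sample labels say day 3 after infection, whereas the series text says day 4. The inhibitor cells were given GSK343 at 4 µM for 3 days, followed by a washout day, and carry the label day 4. Whether these cells were transduced or sorted is not given, and the numbers at the end of their titles run from 27 to 29, where those of early Fra2 run from 4 to 6. Both groups share the C57/B16 background that the labels give. Early control cells, used below for side-by-side values, carried the same construct with scrambled guides and were labelled day 3, or day 4 for replicate 3. With the late control and late Fra2 libraries, labelled day 10 (day 11 in the series text), they also entered the estimate of the spread behind each edgeR p-value. Treatment, transduction, sorting and the set in which the libraries were made cannot be told apart in this contrast. No label ties replicates to separate cultures, and p-values here reflect library-to-library spread that may be technical.

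Fra2, the product of Fosl2, pairs with a Jun protein to form AP-1, a transcription factor that binds TGA(C or G)TCA sites, mostly in distal enhancers, and that acts in wound responses, matrix turnover and fibroblast activation. Ezh2 is the catalytic subunit of Polycomb repressive complex 2 (PRC2), which places trimethylation on lysine 27 of histone H3 over silent developmental genes. GSK343 competes with the methyl donor of that enzyme. Omni-ATAC-seq counts where a transposase can insert adapters, so the values describe open chromatin and not RNA or protein.

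Reads in peaks summed to 21.6, 12.7 and 13.6 M in early Fra2 replicates 1 to 3 and to 22.4, 21.6 and 25.3 M in the inhibitor replicates. A count of 3 reads corresponds to between 0.119 and 0.237 CPM (counts per mega reads in peaks, scaled between libraries) in these libraries, a floor that covers counting error only. Log2 CPM correlated across peaks at 0.896 to 0.921 within early Fra2, at 0.944 to 0.947 within the inhibitor group, and at 0.834 to 0.864 between the groups, as a description over shared peaks. Early Fra2 replicates 2 and 3 were thus shallower than every inhibitor library, and the part of depth in the results was not tested. Of 10 fibroblast markers, 9 had peaks at their gene ends, and the summed level of those 23 peaks was 168 to 180 CPM in early Fra2 and 158 to 170 CPM in the inhibitor group. Thy1, on which the Fra2 cells were sorted, had 2 gene-end peaks, and neither was called. The more open of them had 9.08 ± 0.63 CPM in early Fra2 and 10.4 ± 0.78 CPM in the inhibitor group (SD, n = 3 each). Gene-end peaks of 3 of 5 macrophage markers summed to 20.1 to 23.1 CPM in early Fra2 and 18.3 to 21.3 CPM in inhibitor cells, and those of 4 of 4 epithelial markers to 10.6 to 13.4 CPM in early Fra2 and 9.54 to 11.7 CPM in inhibitor cells. For 3 of 4 neuronal markers the sums were 9.43 to 12.8 CPM in early Fra2 and 10.2 to 10.9 CPM in inhibitor cells. These ranges overlap between the groups. They did not for endothelial markers (4 of 5, at 17.9 to 20.7 CPM in early Fra2 and 14.2 to 15.3 CPM in inhibitor cells) or muscle markers (2 of 3, at 16.9 to 19.5 CPM in early Fra2 and 21.2 to 22.6 CPM in inhibitor cells). The defining genes Pecam1, Ptprc, Adgre1, Rbfox3 and Myog had no gene-end peak, and neither did the fibroblast gene Lum. Whether other cell types took part in the differences below was not tested.

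Regions differed in both directions, with more of them open to a greater degree after Fra2 activation. Of 206349 peaks tested, 18613 (9.02%) were higher in early Fra2 and 10736 (5.20%) were lower, 14.2% in all, at an adjusted p under 0.05 in edgeR's quasi-likelihood test with Benjamini-Hochberg adjustment. The higher peaks had a median log2 fold change of 0.84, with a median level of 5.07 CPM in early Fra2 and 2.81 CPM in inhibitor cells, and early control stood at 2.91 CPM. The lower peaks had a median log2 fold change of -0.78, with 2.53 CPM in early Fra2, 4.39 CPM in inhibitor cells and 3.78 CPM in early control. At least a 2-fold difference was reached by 6204 higher and 2490 lower peaks, and at least a 4-fold one by 173 and 19. By the scaling used here 63.4% of called peaks were higher. That share was 77.2% when libraries were scaled on gene-end peaks and 56.4% when they were scaled on library totals.

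With the reads of all peaks within 100 kb summed for each of 18357 genes, 1715 genes (9.34%) were higher in early Fra2 and 1053 (5.74%) lower, 15.1% in all. The changes of gene sums were small, with a median log2 fold change of 0.27 among higher and -0.32 among lower genes. Sums did not overlap between the groups at 99.1% of higher, 98.6% of lower and 28.1% of uncalled genes. Where a called sum is given below, lack of overlap is therefore no further result. Higher genes were long, with a median of 40.2 kb and 13 peaks, against 17.3 kb and 6 peaks for lower genes and 20.4 kb and 6 peaks for those not called. The direction of the gene balance depended on scaling, since 62.0% of called genes were higher here, 84.9% with gene-end scaling and 43.7% with library totals. Leaving out any 1 of the 6 libraries compared lowered the counts. Without Ezh2 inhibitor replicate 3 the called peaks numbered 11563 higher and 5213 lower, and without early Fra2 replicate 1 they numbered 12150 and 5473. The fall was proportionally larger among lower than among higher peaks. Leaving out inhibitor replicate 2 gave 12779 and 6106 peaks, inhibitor replicate 1 gave 13589 and 6616, and early Fra2 replicate 2 gave 13557 and 6774. Genes numbered 970 higher and 454 lower without early Fra2 replicate 1, 1024 and 504 without inhibitor replicate 2, 1112 and 451 without inhibitor replicate 3, 1116 and 580 without inhibitor replicate 1, and 1318 and 553 without early Fra2 replicate 2. Dropping early control replicate 3, the shallowest library, from the estimate of the spread raised the counts, to 2587 higher and 1872 lower genes.

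The targeted gene was more open in early Fra2 than in inhibitor cells, chiefly past its far end. Fosl2 spans chr5:32136472-32157840 on the plus strand (GRCm38.p6, also called mm10). Of 32 peaks within 10 kb of it, 9 were higher in early Fra2 and 0 lower, beside 9.02% and 5.20% of all peaks. The strongest peak, 4.3 kb past the end of the gene, had 5.08, 6.32 and 8.21 CPM in early Fra2 and 1.41, 1.59 and 2.02 CPM in inhibitor cells. Every early Fra2 library stood above every inhibitor library there, and the log2 fold change was 1.94 ± 0.24 (SE, adjusted p = 2.25e-08, edgeR). Of 8 peaks past the end, 7 were higher, with a median log2 fold change of 1.08. In the body 0 of 15 peaks were called by edgeR, and 4 had an unadjusted p under 0.05. The peak over the start had 13.4, 14.9 and 9.80 CPM in early Fra2 and 8.44, 7.72 and 7.81 CPM in inhibitor cells, again without overlap, for a log2 fold change of 0.67 ± 0.15 (adjusted p = 1.52e-03, edgeR). Of the 9 called peaks, 7 were called whichever of the 6 libraries was left out. The 2 exceptions, 3.2 kb past the end and 6.6 kb before the start, held in 1 of 6 such fits each. Summed over its 36 assigned peaks, Fosl2 had 280, 278 and 285 CPM in early Fra2 against 225, 225 and 227 CPM in inhibitor cells.

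The Ezh2 gene, whose protein the inhibitor acts on, also had called peaks. It spans chr6:47530274-47595270 on the minus strand, and 2 of the 10 peaks within 10 kb were higher in early Fra2, beside 9.02% of all peaks. One had 11.0, 9.51 and 8.58 CPM in early Fra2 and 6.02, 5.76 and 6.64 CPM in inhibitor cells, a log2 fold change of 0.67 ± 0.16 (adjusted p = 3.31e-03, edgeR). Its early Fra2 values lay above all inhibitor values, but the call was lost without early Fra2 replicate 1, at an adjusted p of 0.053. The other peak had a log2 fold change of 0.55 ± 0.17 (adjusted p = 2.08e-02, edgeR), and its call was lost without early Fra2 replicate 1 and without inhibitor replicate 2. At the start of Ezh2 the peak had 21.1, 21.3 and 14.7 CPM in early Fra2 and 20.6, 18 and 16.2 CPM in inhibitor cells, values that overlap.

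**Figure D1:**
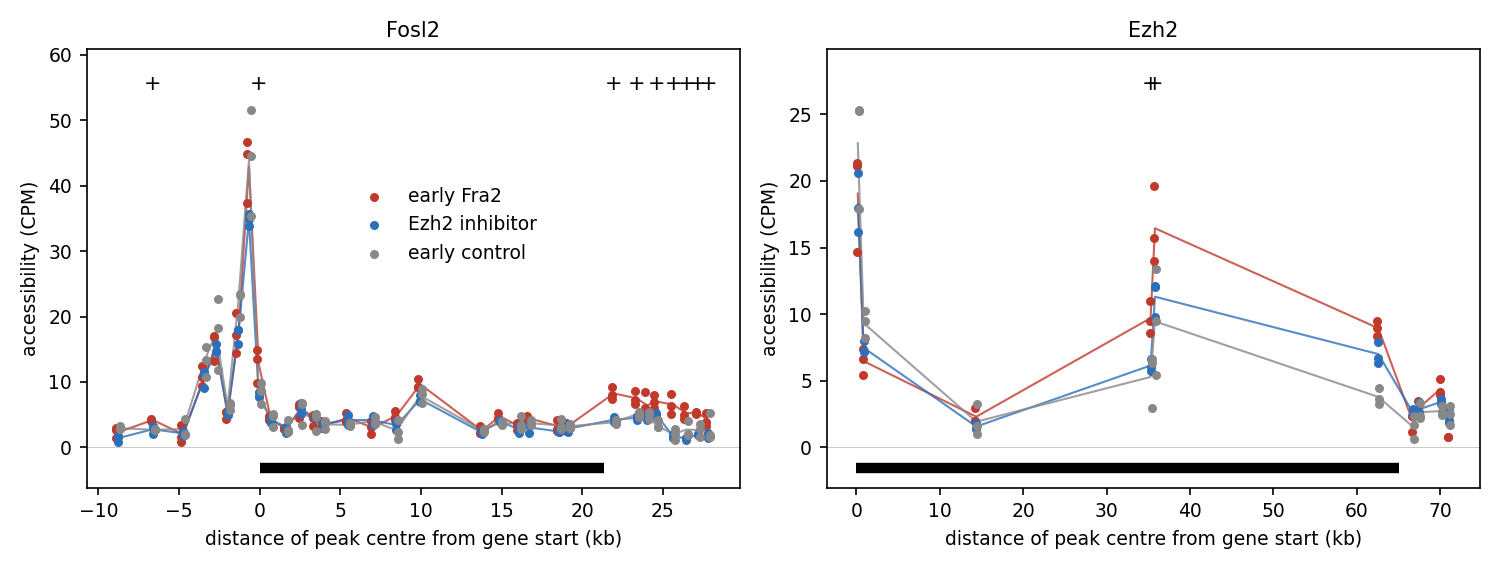
Peak level in CPM in each library against distance from the gene start in kb, at Fosl2 and at Ezh2. Points are libraries of early Fra2, Ezh2 inhibitor and early control, lines join group means, the black bar is the gene, and plus and minus marks show peaks called higher or lower in early Fra2. The called peaks of Fosl2 gather past the end of the gene, where the strongest reaches 8.21 CPM in early Fra2 against at most 2.02 CPM in the inhibitor group.

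Where a peak lay relative to genes went with the direction of its change. Peaks far from genes were called higher most often. More than 100 kb from any gene, 13.6% of 23377 peaks were higher and 3.93% lower in early Fra2, and at 10 to 100 kb the shares were 11.9% and 4.88%. Within gene bodies they were 8.89% and 5.85%. At gene ends, within 1 kb of either end of a gene, 2.04% of 26742 peaks were higher and 3.43% lower. Around annotated starts the difference was rarest, with 1.15% higher and 2.17% lower of 17140 peaks, and around the far ends 5.53% were higher and 9.04% lower of 3925. The excess of lower over higher calls at gene ends turned round with gene-end scaling, which gave 871 higher and 650 lower peaks there in place of 545 and 917. Gene-end scaling also gave 385 higher and 254 lower peaks around starts, and 273 and 264 around far ends. Median levels differed between these classes, at 6.88 CPM around starts and 3.18 CPM around far ends, and the part of level in the calls was not tested.

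Promoters that were more open in early Fra2 carried the AP-1 letters more often than others, given here as counts with no test. A promoter window runs from 250 bases before to 50 bases after an annotated start, and the windows and their letters are those of RefSeq on GRCm38.p6. Letters were looked for on both strands, and no motif used here contains another. For AP-1 they were TGANTCA, where N is any base, which is looser than TGA(C or G)TCA. Of 288 windows whose overlapping peak was higher in early Fra2, 72 (25%) held TGANTCA, against 31 of 358 (8.66%) where the peak was lower, 997 of 15177 (6.57%) where it was not called and 7.81% of all windows. The RUNX letters TGTGGT stood in 29.9% of the higher windows, 15.6% of the lower ones, 12.4% of those not called and 16.8% of all. For the TEAD letters GGAATG the shares were 22.9%, 19.3%, 12.5% and 14.7%. CCAAT, the NF-Y letters, stood in 33.3% of higher, 30.7% of lower and 36.8% of uncalled windows. The cyclic AMP element TGACGTCA stood in 1 of the higher, 4 of the lower and 447 of the uncalled windows, too few in the called ones to compare. Base composition differed too, with a median GC content of 50% in higher, 54.7% in lower and 61.3% in uncalled windows, and its part in the shares was not tested. A match to these letters is a description of the window and not a binding site.

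**Figure D2:**
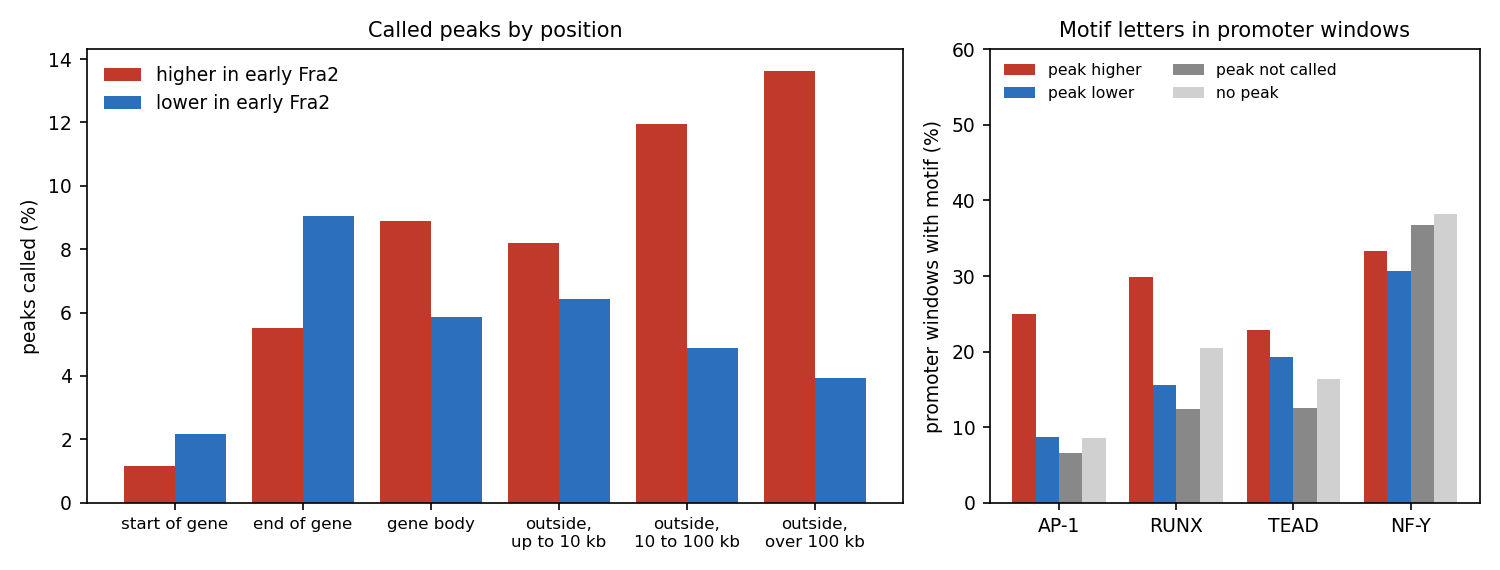
Left, percent of peaks called higher or lower in early Fra2 by position relative to genes, with peaks more than 100 kb from genes at 13.6% higher and 3.93% lower. Right, percent of promoter windows that hold the letters of each motif, by the state of the overlapping peak; the AP-1 letters stand in 25% of windows with a higher peak and in 8.66% of those with a lower peak.

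A pair of promoters from each side shows these windows. The higher pair was picked with an AP-1 match and the lower pair without one. Apobr encodes a receptor for apolipoprotein B, and its window (chr7:126584758-126585057, plus strand) holds an AP-1 match 196 bases before the start. Odaph encodes a protein of dental enamel, and its window (chr5:91987223-91987522, plus strand) holds one 59 bases before the start and a RUNX match as well. Cdkn1a (chr17:29090729-29091028, plus strand) and Smim1 (chr4:154025995-154026294, minus strand) were lower and hold no AP-1 match. Each is written from 5′ to 3′ on the strand of the gene. Capitals mark the AP-1 match in the first pair and, in Cdkn1a, matches to the p53 half-site consensus. These lie 73 and 51 bases before the annotated start used for this window. Whether these cells use that start was not tested. That consensus was looked for after the window had been read, and it stands in 2745 of 32851 windows (8.36%).
Apobr: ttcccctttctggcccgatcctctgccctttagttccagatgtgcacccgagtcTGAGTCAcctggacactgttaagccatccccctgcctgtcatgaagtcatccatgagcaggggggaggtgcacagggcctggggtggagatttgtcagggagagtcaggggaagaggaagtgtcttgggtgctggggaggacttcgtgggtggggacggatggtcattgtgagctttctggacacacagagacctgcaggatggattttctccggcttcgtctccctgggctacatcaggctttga
Odaph: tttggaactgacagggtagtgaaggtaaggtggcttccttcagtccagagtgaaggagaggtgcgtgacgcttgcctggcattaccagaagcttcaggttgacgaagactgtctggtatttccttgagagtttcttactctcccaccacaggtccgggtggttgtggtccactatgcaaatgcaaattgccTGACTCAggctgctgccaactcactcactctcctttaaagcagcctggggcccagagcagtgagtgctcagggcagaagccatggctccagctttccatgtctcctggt
Cdkn1a: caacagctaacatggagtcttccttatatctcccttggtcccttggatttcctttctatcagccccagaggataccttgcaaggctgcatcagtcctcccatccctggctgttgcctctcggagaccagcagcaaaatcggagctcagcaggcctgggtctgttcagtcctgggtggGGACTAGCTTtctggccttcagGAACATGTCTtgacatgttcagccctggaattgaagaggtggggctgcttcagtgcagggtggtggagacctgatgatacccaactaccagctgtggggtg
Smim1: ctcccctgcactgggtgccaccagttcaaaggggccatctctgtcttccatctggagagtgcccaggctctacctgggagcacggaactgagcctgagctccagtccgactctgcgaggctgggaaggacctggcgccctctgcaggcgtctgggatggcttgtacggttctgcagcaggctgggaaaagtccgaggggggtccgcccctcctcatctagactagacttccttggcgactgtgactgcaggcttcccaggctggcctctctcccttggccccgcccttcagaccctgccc

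The peak over the Apobr window had 8.88, 8.95 and 6.92 CPM in early Fra2 and 3.65, 3.90 and 3.77 CPM in inhibitor cells. That over Odaph had 7.79, 9.11 and 6.92 CPM in early Fra2 and 4.26, 3.68 and 3.65 CPM in inhibitor cells. Both pairs of groups stood apart, with log2 fold changes of 1.13 ± 0.16 for Apobr (adjusted p = 1.03e-06) and 1.03 ± 0.17 for Odaph (adjusted p = 1.17e-05, both edgeR). The Cdkn1a window peak had 5.22, 5.76 and 5.40 CPM in early Fra2 and 9.28, 10.5 and 12.2 CPM in inhibitor cells, and the Smim1 peak 6.98, 6.71 and 6.77 CPM in early Fra2 and 12.2, 11.8 and 12.7 CPM in inhibitor cells. Here every early Fra2 library was the lower, with log2 fold changes of -0.98 ± 0.16 (adjusted p = 8.1e-06) and -0.84 ± 0.15 (adjusted p = 4.42e-05, both edgeR). The letters did not sort the promoters cleanly. Sdk2, a cell adhesion gene, was higher without an AP-1 match, at a mean of 10.5 CPM in early Fra2 and 4.21 CPM in inhibitor cells. Plpp7 was lower with a match 63 bases before its start, at 5.22 CPM in early Fra2 and 9.69 CPM in inhibitor cells. That match, TGAATCA, falls outside the stricter TGA(C or G)TCA. F11r was lower with TGAGTCA 109 bases before its start. Its peak had a mean of 5.64 CPM in early Fra2 and 9.02 CPM in inhibitor cells.

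Cdkn1a, which encodes the cyclin-dependent kinase inhibitor p21 and is the best known target of p53, held the lower peak with the smallest p, just past the end of the gene. The gene spans chr17:29090979-29100722, and 8 of 13 peaks within 10 kb were lower in early Fra2 and 0 higher, beside 5.20% and 9.02% of all peaks. At the peak 0.1 kb past the end, levels were 4.70, 3.04 and 3.03 CPM in early Fra2 and 17.8, 17.5 and 17.4 CPM in inhibitor cells, while early control had 8.21, 7.98 and 8.40 CPM. The 3 groups did not overlap, and early control lay between the others. The log2 fold change of early Fra2 over inhibitor was -2.25 ± 0.17 (adjusted p = 3.12e-15, edgeR). Set against the same early control libraries, early Fra2 stood at -1.14 and the inhibitor at 1.10 on the log2 scale, and both differences were called. The neighbouring peak, just inside the gene, had 2.28, 3.20 and 1.80 CPM in early Fra2 and 8.92, 10.4 and 11.4 CPM in inhibitor cells, a log2 fold change of -2.10. The 4 peaks between 2.7 and 4.5 kb after the start were not called, with log2 fold changes between -0.38 and -0.04. The first of them was the most open peak within 10 kb of the gene. It had 18.9, 16.7 and 15.1 CPM in early Fra2 and 20.9, 18.6 and 20.9 CPM in inhibitor cells (log2 fold change -0.25). From 5.5 kb on, all 6 peaks were lower, at -0.90, -0.81, -1.18, -1.60, -2.10 and -2.25 in order towards and past the far end. Summed over its 19 assigned peaks, Cdkn1a had 118, 117 and 112 CPM in early Fra2 and 174, 169 and 178 CPM in inhibitor cells, without overlap (log2 fold change -0.59 ± 0.05, adjusted p = 8.17e-08, edgeR).

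Btg2, an antiproliferative gene that p53 also activates, was also lower around its far end. Of 16 peaks within 10 kb of the gene (chr1:134074865-134079155, minus strand), 7 were lower in early Fra2, beside 5.20% of all peaks. The one 0.4 kb past the end had 11.8, 14.3 and 6.99 CPM in early Fra2 and 29.1, 30.5 and 36.1 CPM in inhibitor cells. This peak was named by its small p, with lack of overlap as a condition. Its log2 fold change was -1.53 ± 0.17 (adjusted p = 1.42e-09, edgeR), whereas the peak over the start was not called, at -0.13. Sums of the other p53 and senescence genes were called higher or not called. Of 31 tested, 5 gene sums were higher (Bax, Cdkn2a, Cdkn2b, Gadd45a and Pmaip1) and 2 lower (Btg2 and Cdkn1a). Over all genes the shares were 9.34% higher and 5.74% lower. Of the 416 peaks of this list, 8.41% were higher and 7.69% lower, beside 9.02% and 5.20% of all peaks. Cdkn2a, which encodes the cell-cycle brakes p16 and p19Arf, had 72.8, 64.9 and 65.5 CPM in early Fra2 and 55.5, 53.5 and 56.0 CPM in inhibitor cells. A distal peak assigned to Pmaip1, which encodes the death-promoting protein Noxa, had 11.8, 11.4 and 10.7 CPM in early Fra2 and 3.56, 3.36 and 2.72 CPM in inhibitor cells, and was far higher in each early Fra2 library. Calls of Cdkn2a, Gadd45a, Btg2 and Cdkn1a sums held whichever library was left out, and those of Bax, Cdkn2b and Pmaip1 did not.

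**Figure D3:**
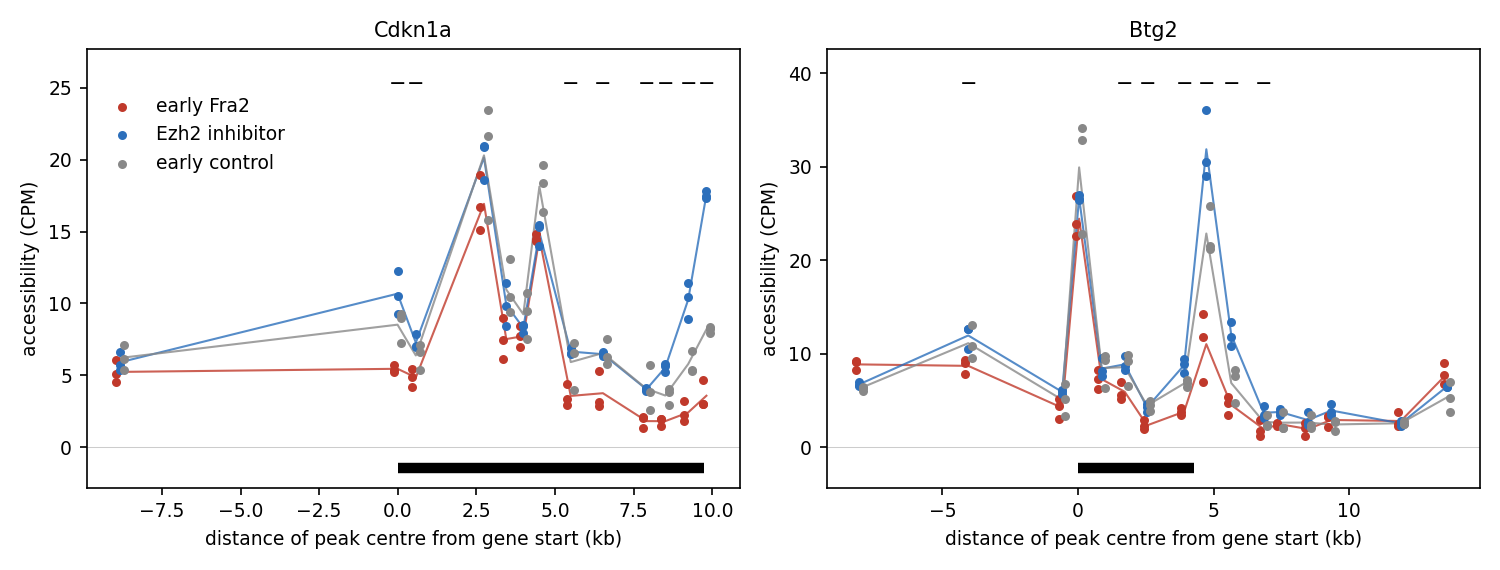
Peak level in CPM in each library against distance from the gene start in kb, at Cdkn1a and Btg2, drawn as in the plot of the Fosl2 and Ezh2 loci. The largest decreases in early Fra2 relative to inhibitor cells lie at the far ends of the genes, where Cdkn1a reaches 17.8 CPM in inhibitor cells and no more than 4.70 CPM in early Fra2.

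A few other genes with lower peaks around their far ends or bodies were looked at singly, and they stand for no group. Apart from Sox12, Btg2 and Fos, they were singled out after their values had been seen. Sox12, Btg2 and Fos came from the naming rule as the genes with the most lower peaks per length, which uses the same values. The closer look at Btg2 and Fos also came after their values had been seen. Counts of lower peaks here stand beside 5.20% of all peaks. Id3, an inhibitor of basic helix-loop-helix factors and a direct target of BMP signalling, had 4 of 7 peaks past its end lower in early Fra2 and 0 higher. Its peak 1.6 kb past the end had 11.0, 11.2 and 10.6 CPM in early Fra2 and 24.7, 23.6 and 21.2 CPM in inhibitor cells. At Fos, which encodes a partner of Jun in AP-1, 4 of 12 peaks within 10 kb were lower, and the one 0.2 kb past the end had 1.38, 2.24 and 2.02 CPM in early Fra2 and 4.31, 4.63 and 4.74 CPM in inhibitor cells. In both places the groups stood apart. Over all 28 peaks assigned to Fos, however, the sum was not called (log2 fold change -0.12, adjusted p = 0.161, edgeR). Junb, another AP-1 subunit, had 6 of 18 peaks lower within 10 kb, with a summed level of 92.2, 88.1 and 78.1 CPM in early Fra2 and 108, 105 and 104 CPM in inhibitor cells. Each early Fra2 sum of Junb was under every inhibitor sum. Sox12, a transcription factor gene, summed to 55.0, 42.9 and 40.3 CPM in early Fra2 and 66.8, 66.4 and 66.6 CPM in inhibitor cells. Sums of Id3, Junb and Sox12 were called in every fit with a library left out. That of Egr1, at a log2 fold change of -0.23, was lost without inhibitor replicate 3.

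Among peaks with a level of at least 1 CPM and no overlap between groups, the 10 largest gains lay outside genes (5) or inside gene bodies (5) and not at gene ends. Non-overlap alone was common, holding at 34.6% of all tested peaks and at 96.2% of called peaks in each direction. A peak 41.9 kb from Med13l, a subunit gene of the Mediator kinase module, had 2.85, 5.12 and 4.11 CPM in early Fra2 and 0.615, 0.409 and 0.350 CPM in inhibitor cells, a log2 fold change of 3.11 ± 0.42. One within Nrg1, which encodes the growth factor neuregulin, had 2.80, 2.40 and 2.09 CPM in early Fra2 and 0.396, 0.363 and 0.350 CPM in inhibitor cells. These inhibitor levels are low, though above the level of 3 reads in each library. By smallest p the gains were better filled. A peak 4.2 kb from Prps1l1 had 13.4, 13 and 11.6 CPM in early Fra2 and 2.42, 2.32 and 2.64 CPM in inhibitor cells (log2 fold change 2.36 ± 0.17, adjusted p = 1.53e-15, edgeR). Inside Pax6, an eye and neural regulator that is a known Polycomb target, a peak had 14.4, 13.7 and 10.9 CPM in early Fra2 and 2.73, 3.50 and 3.15 CPM in inhibitor cells. Lack of overlap between the groups was a condition for naming these peaks and is not a further result. Mast4, a kinase gene, held a peak with 17.9, 15.3 and 15.6 CPM in early Fra2 and 5.06, 4.27 and 4.74 CPM in inhibitor cells.

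The largest decreases ranged widely in level. A peak in Pam, which encodes a peptide-amidating enzyme, had 0.237, 0.240 and 0.504 CPM in early Fra2 and 2.51, 1.82 and 2.49 CPM in inhibitor cells. Its early Fra2 values are near the counting floor. A count of 3 reads is 0.139, 0.237 and 0.221 CPM in replicates 1 to 3, so the value of replicate 2 lies at that level. Near Mllt3, a subunit gene of the super elongation complex, levels were 0.902, 1.60 and 0.865 CPM in early Fra2 and 5.85, 5.40 and 4.66 CPM in inhibitor cells (log2 fold change -2.28, adjusted p = 1.49e-09, edgeR). Peaks in Man2b2, a lysosomal mannosidase gene, and in Osbpl5, a lipid transfer gene, were lower as well, with Osbpl5 at 4.22, 4.80 and 3.46 CPM in early Fra2 and 12.7, 12.1 and 13.8 CPM in inhibitor cells. All 28 distinct peaks named by size or by p kept their call and direction whichever library was left out. They had been picked for lack of overlap and for large fold or small p, which favours that outcome, so it is no separate support. Of all 90 named peaks, 73 to 83 stayed called with a library left out.

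Each group was also set beside early control, in comparisons that share the same 3 control libraries and are therefore given as values only. Over control, early Fra2 gave 10.1% of peaks higher and 4.92% lower, and the inhibitor 0.552% higher and 0.341% lower. The Med13l peak stood at 2.64 for early Fra2 and -0.47 for the inhibitor on the log2 scale over control, the Mast4 peak at 1.74 and -0.06, and the Mllt3 peak at -2.09 and 0.18. For each of the 3, the inhibitor difference was not called. The Prps1l1 and Pax6 peaks took part of their contrast from each side, at 1.42 and -0.94 for Prps1l1 and at 1.26 and -0.80 for Pax6, and all 4 of those differences were called. The strongest Fosl2 peak stood at 1.81 for early Fra2 and at -0.13 for the inhibitor.

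Gene sums named by size were led by genes of other tissues with few peaks. Olig2, a regulator of the oligodendrocyte lineage, had 13, 12 and 14.4 CPM in early Fra2 and 5.65, 6.05 and 4.66 CPM in inhibitor cells, without overlap, and all 3 of its peaks were higher (log2 fold change 1.27 ± 0.19). Prps1l1, a testis form of a nucleotide synthesis enzyme, summed to 52.3, 52.7 and 47.1 CPM in early Fra2 and 27.1, 28 and 27.3 CPM in inhibitor cells. Cer1, a secreted antagonist of Nodal and BMP, had a log2 fold change of 0.93, and Pou2af1, a B cell coactivator, one of 0.82. Among lower genes, Fbxw10 had 10.7, 10.8 and 9.40 CPM in early Fra2 and 17, 19 and 18.4 CPM in inhibitor cells. Smim1, which carries a blood group antigen in humans, had 17.6, 22.4 and 22.5 CPM in early Fra2 and 34.9, 34.2 and 37.7 CPM in inhibitor cells. Neither gene's groups overlapped. Gsx2, a forebrain regulator, was lower at -0.81 over all peaks within 100 kb, but stood at 0.26 and was not called when only peaks within 10 kb were summed. Of the other lower genes, the call of Gm39002 (-0.76) was lost without early Fra2 replicate 1, at an adjusted p of 0.0577 in edgeR, and Pipox and Adam6b kept theirs in 3 and 1 of the 6 fits with a library left out.

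**Figure D4:**
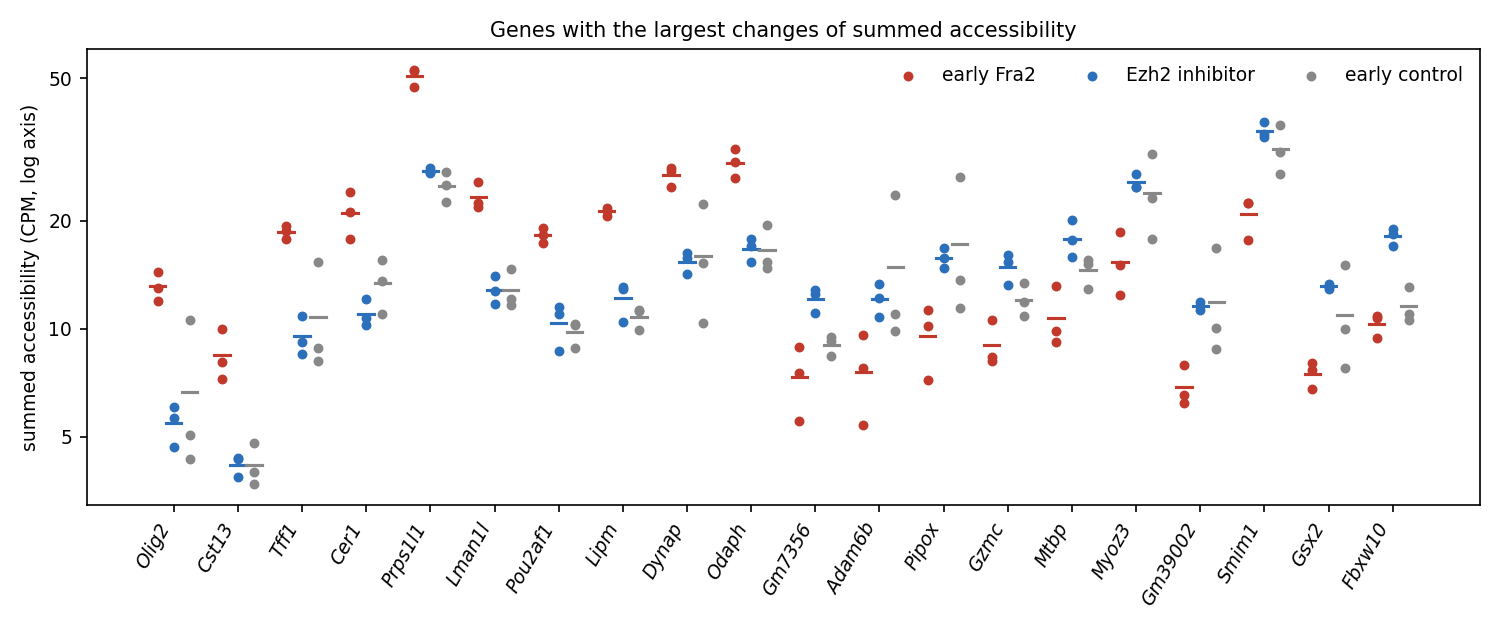
Summed CPM of all peaks assigned to a gene, on a log axis, in each library for the 10 genes with the highest and the 10 with the lowest log2 fold change among called genes with at least 3 peaks. Points are libraries and bars are group means; Olig2 had 12 to 14.4 CPM in early Fra2 and 4.66 to 6.05 CPM in inhibitor cells.

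AP-1 family genes as a group had as many higher as lower sums, while 15 of 48 genes that AP-1 is known to regulate or that act in wounds were higher, beside 9.34% of all genes. Of the 434 peaks of 23 AP-1 family genes, 34 (7.83%) were higher in early Fra2 and 24 (5.53%) lower, beside 9.02% and 5.20% of all peaks, and the median log2 fold change was 0.00 against -0.01 over all. By gene sums, Bach1, Bach2 and Fosl2 were higher and Atf7, Junb and Maff lower, and under cyclic loess scaling the counts were 1 and 4. In that second list 1 gene, Sphk1, was lower, and the counts were 21 higher and 0 lower under gene-end scaling, 14 and 1 under library totals and 12 and 3 under cyclic loess scaling. The 883 peaks of these 48 genes were higher in 10.5% of cases and lower in 3.17%, beside 9.02% and 5.20% of all peaks. By peaks, then, the share of higher calls was near that of all peaks. Over all genes, those called higher had a median of 13 peaks and those not called 6. The part of peak number in the calls of sums was not tested. Ereg, which encodes the growth factor epiregulin, had 90.1, 85.6 and 83.2 CPM in early Fra2 and 67.3, 66.3 and 66.2 CPM in inhibitor cells. Mmp13, a collagenase gene, had 36.2, 29.4 and 36.5 CPM in early Fra2 and 22.2, 25.4 and 26.7 CPM in inhibitor cells. The groups stood apart at both genes. The calls of 11 of the 15 held with every library left out, among them Ccl2, Cxcl5, Hbegf, Itgb3, Plat and Ptgs2. A peak of Tnc, the wound matrix gene tenascin C, was higher at a log2 fold change of 1.83, and one of Cd44, a hyaluronan receptor, was lower at -1.40.

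Genes of the Polycomb machinery had called peaks in both directions, to be read beside the 9.02% higher and 5.20% lower of all peaks. PRC2 subunit genes had 11 higher and 15 lower peaks of 183 (6.01% and 8.20%), with a median log2 fold change of -0.05, and of 15 gene sums Aebp2 and Ezh2 were higher and 0 lower. Only Aebp2, an accessory subunit, kept its call in every fit with a library left out, at 202, 199 and 203 CPM in early Fra2 and 179, 182 and 179 CPM in inhibitor cells. A peak inside Jarid2, a PRC2 recruiting subunit, was lower, at 1.90, 1.76 and 2.31 CPM in early Fra2 and 5.36, 5.31 and 5.71 CPM in inhibitor cells. The early Fra2 levels there were all less than any inhibitor level (log2 fold change -1.46, adjusted p = 5.29e-07, edgeR), and over early control the peak stood at -1.62 for early Fra2 and -0.16 for the inhibitor. PRC1 subunit genes, whose complex reads and compacts Polycomb chromatin, had 35 higher and 9 lower of 429 peaks (8.16% and 2.10%), with 3 sums higher and 3 lower of 24, beside 9.34% and 5.74% of all genes. The 4 genes with peaks for H3K27 demethylases and acetyltransferases had 2 lower peaks of 45, at Ep300 and Kdm6b, and neither call held in any fit with a library left out.

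Peaks of listed developmental regulators that Polycomb binds were called at about the background rate, and peaks of Hox cluster genes less often. Of 1673 peaks of these regulators, 8.25% were higher and 4.60% lower, beside 9.02% and 5.20% of all peaks. Their median log2 fold change was 0.02. Sums of 19 of 152 genes were higher and 6 lower, beside 9.34% and 5.74% of all genes. The counts were 13 and 13 under library totals and 29 and 4 under gene-end scaling. The calls that held with every library left out were Evx1, Eya1, Gdnf, Irx1, Olig2, Pax6, Tbx20 and Tbx4 among higher genes and Gsx2, Hmx1 and T among lower ones. Of these, Irx1, Gsx2 and Hmx1 changed sign and were not called when only peaks within 10 kb were summed. Tbx20, a heart regulator, had 38.7, 39.5 and 46.8 CPM in early Fra2 and 28.2, 28.2 and 29 CPM in inhibitor cells. Hox cluster genes, the classic targets of Polycomb, had 12 higher and 6 lower of 310 peaks (3.87% and 1.94%) and 1 higher and 1 lower of 39 sums. Of these 310 peaks, 99 lay at gene ends, against 26742 of all 206349 peaks. Gene-end peaks were seldom called, with 2.04% higher and 3.43% lower. The part of peak position in the low Hox shares was not tested. Single peaks ran both ways, as with Pax9 at a log2 fold change of 2.49 and Pax3 at -1.80.

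**Figure D5:**
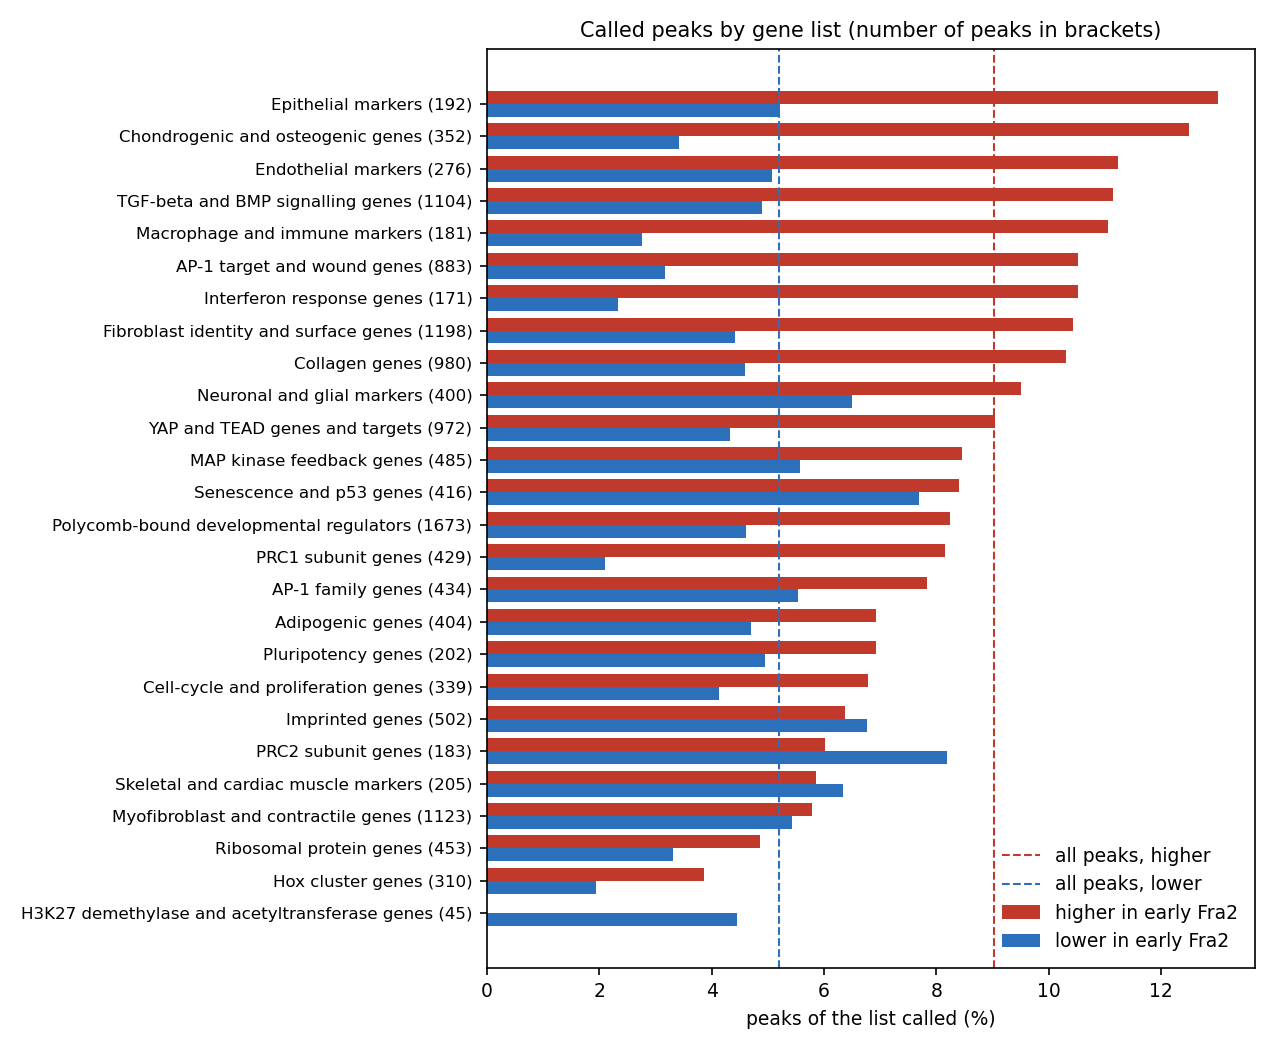
Percent of the peaks of each gene list that were called higher or lower in early Fra2, with dashed lines at the shares of all peaks, 9.02% higher and 5.20% lower. AP-1 target and wound genes stand at 10.5% higher and 3.17% lower, and Hox cluster genes at 3.87% and 1.94%.

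Genes of fibroblast identity, matrix and growth factor signalling had more higher than lower sums in early Fra2, as did all genes (9.34% higher and 5.74% lower). Fibroblast identity genes had 9 higher and 0 lower sums of 49, with 16 and 0 under gene-end scaling and 7 and 2 under library totals, and 10.4% of their 1198 peaks were higher and 4.42% lower, near the 9.02% and 5.20% of all peaks. Fbn1, which encodes the microfibril protein fibrillin 1, had 359, 335 and 331 CPM in early Fra2 and 255, 258 and 261 CPM in inhibitor cells, and 19 of its 56 peaks were higher. Runx2, a skeletal regulator, had 398, 412 and 405 CPM in early Fra2 and 322, 336 and 323 CPM in inhibitor cells, with 15 of 66 peaks higher. Both genes showed no overlap between the groups, as did 99.1% of all genes called higher. Collagen genes had 13 higher and 3 lower sums of 38, the lower ones being Col4a1, Col9a1 and Col9a2. Of their 980 peaks, 10.3% were higher and 4.59% lower, again near the shares of all peaks. The calls of 7 of the 13 higher and 0 of the 3 lower collagen sums held whichever library was left out. Col1a1, the main fibrillar collagen gene, had 303, 276 and 272 CPM in early Fra2 and 230, 231 and 235 CPM in inhibitor cells, with early control at a mean of 299 CPM. Col6a2 had 93.0, 92.4 and 79.8 CPM in early Fra2 and 66.1, 70.5 and 66.2 CPM in inhibitor cells, with early control at 78.8 CPM. The early Fra2 and inhibitor values did not overlap at either collagen gene.

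TGF-beta and BMP signalling genes had 14 higher and 3 lower sums of 49, but 10 and 8 under library totals. Of their 1104 peaks, 11.1% were higher and 4.89% lower, beside 9.02% and 5.20% of all peaks. The calls of 10 of the 14 higher and 1 of the 3 lower sums held whichever library was left out. Ltbp1, which stores latent TGF-beta in the matrix, had 412, 409 and 412 CPM in early Fra2 and 331, 337 and 341 CPM in inhibitor cells, with 22 higher and 4 lower of 69 peaks. Grem1, a secreted BMP antagonist, had 53.7, 51.5 and 48.4 CPM in early Fra2 and 38.2, 41.5 and 37.2 CPM in inhibitor cells. Tgfbr3, a co-receptor, had 264, 259 and 263 CPM in early Fra2 and 207, 209 and 215 CPM in inhibitor cells. All 3 were higher in each early Fra2 library than in any inhibitor library, while the BMP targets Id1 and Id3 were lower. Myofibroblast and contractile genes had 0 higher and 3 lower of 31 sums, or 5 and 2 under gene-end scaling, and 5.79% of their 1123 peaks were higher and 5.43% lower. The call of 1 of the 3, Flna, held in 1 of the 6 fits with a library left out. Of the lower ones, Myl9, a myosin light chain gene, had 47.5, 48.6 and 47.8 CPM in early Fra2 and 58.9, 60.1 and 59.1 CPM in inhibitor cells.

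Lists for other cell types and programmes are given as counts of sums, to be read against the 9.34% higher and 5.74% lower of all genes, and small counts among them lie near that background. Epithelial markers had 9 higher and 1 lower of 25 sums, a median log2 fold change of 0.18, and a total of 838 to 869 CPM in early Fra2 and 765 to 770 CPM in inhibitor cells. Ovol2, an epithelial transcription factor gene, had 25.2, 28.2 and 26.5 CPM in early Fra2 and 16.5, 19.2 and 17.5 CPM in inhibitor cells. Interferon response genes had 7 higher and 0 lower of 28 sums, led by Zbp1, a sensor of nucleic acids, whose gene-end peak had 7.31, 8.31 and 7.42 CPM in early Fra2 and 2.15, 1.36 and 1.67 CPM in inhibitor cells. Both genes were higher in every early Fra2 library. Only 2 of the 9 higher epithelial sums (Grhl2 and Ovol2) and 2 of the 7 interferon sums (Ccl5 and Zbp1) kept their call whichever library was left out. Endothelial markers had 4 higher and 0 lower of 22 sums, and macrophage and immune markers 3 and 0 of 18. Skeletal and cardiac muscle markers had 1 higher and 3 lower of 24, and neuronal and glial markers 4 and 3 of 25. MAP kinase feedback genes had 1 higher and 2 lower of 24, YAP and TEAD genes 6 and 1 of 30 (1 and 3 under cyclic loess scaling), cell-cycle genes 4 and 1 of 35, adipogenic genes 2 and 0 of 22, chondrogenic and osteogenic genes 2 and 1 of 26, pluripotency genes 1 and 1 of 27, and imprinted genes 1 and 2 of 34. Ribosomal protein genes, given as a housekeeping list, had 2 and 2 of 74.

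The lists of peaks that the authors called in each library come from libraries of unequal depth and differ in length, so their overlaps are given as a description. They hold 191169, 166596 and 141637 intervals in early Fra2 replicates 1 to 3 and 205575, 201350 and 220110 in the inhibitor replicates. Of the consensus peaks, 1289 were overlapped by a called interval in all 3 early Fra2 lists and in no inhibitor list, and 82.2% of them were higher by counts and 0 lower. The direction is fixed by that choice, since lists and counts come from the same reads. The reverse pattern held at 7685 consensus peaks, of which 26.2% were lower. With intervals limited to a −log10 q of at least 5, the counts were 714, of which 93.6% were higher, and 7819, of which 30.8% were lower. Intervals were present in all 6 lists at 116715 consensus peaks.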

How the data were processed

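The series holds Omni-ATAC-seq of mouse embryonic fibroblasts in 15 libraries, in 5 groups of 3. The authors deposited raw read counts per consensus peak, and 206366 of the 206367 peaks are 502 bp wide. They also deposited a peak list per library, in which each interval has a fold enrichment (ratio) and its p and q on a −log10 scale. The submitters' processing notes name MACS2 as peak caller and mm10 as genome build. Not given in the sources used here are the aligner, the read shift, the counting tool, the treatment of duplicates and how consensus peaks were made. Duplicates and multi-mapped reads can move such counts. All count columns matched a library label, and 0 were left unused.

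The test was the quasi-likelihood F-test of edgeR 4.0.16 (R 4.3.3), after TMM scaling and the default filter, which removed 18 peaks. All 15 libraries entered one fit that shares the estimate of the spread, and the contrast was early Fra2 minus Ezh2 inhibitor. CPM values are after TMM scaling, and an adjusted p is Benjamini-Hochberg over all peaks or all genes, with a call under 0.05. The fits were tested on simulated data. A peak was given to the nearest of 21900 protein-coding genes of RefSeq on GRCm38.p6 within 100 kb (182983 peaks), and counts were summed per gene. The nearest gene need not be the one a peak regulates. Gene starts and strands came from the promoter table, which has none for some genes. Depth in peaks ran from 12.7 to 25.3 M reads in the 6 libraries compared.

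Named peaks are the 10 higher and 10 lower with the largest fold and the 5 and 5 with the smallest p, among called peaks without overlap and with at least 1 CPM, the extreme called peaks of each list, and the peaks of Fosl2 and Ezh2. Named genes are the 10 highest and 10 lowest called sums with at least 3 peaks and the 3 and 3 with the most higher or lower peaks per length. Cdkn1a, Btg2, Id3, Fos and Junb were looked at more closely after their values had been seen. Of these, Cdkn1a, Btg2 and Fos also came from the rules above, which use the same values. The comparison, its members and the 26 gene lists (901 genes, 882 with a peak) were chosen with earlier results of these data known. Alternatives were DESeq2 1.42.0, limma 3.58.1 with cyclic loess, other scalings, no filter, only the 6 libraries, a replicate block, peaks within 10 kb, a fold threshold, and each library left out.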

Additional observations from a re-analysis of the deposited data

How the results depend on the processing

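Both the numbers of calls and the named results moved with the fit. In the order peaks higher, peaks lower, genes higher, genes lower, the values were 18613, 10736, 1715 and 1053. An adjusted p under 0.01 with at least a 2-fold change gave 4733, 1479, 20 and 14. The 6 libraries alone gave 24409, 17631, 2749 and 1920, and leaving early control replicate 3 out of the spread estimate gave 24091, 15520, 2587 and 1872. Gene-end scaling gave 6849 lower peaks, 2840 higher genes and 506 lower genes, library totals gave 1585 lower genes, and cyclic loess gave 1124 higher genes. DESeq2's Wald test gave 16368, 8712, 1866 and 1168. With one of the 6 libraries left out, peaks ranged from 11563 to 15695 higher and 5213 to 8750 lower, genes from 970 to 1524 higher and 451 to 808 lower, called peaks at Fosl2 from 7 to 10 and at Ezh2 from 0 to 3. The cause of these moves was not tested.

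Replicate numbers gave no pairing, since deviations of same-numbered libraries correlated at -0.0329 to 0.000537, and with the replicate number as a block the fit called 18314, 10704, 1676 and 1000. Of 90 named peaks, 73 to 83 stayed called with a library left out and 83 to 90 under the other settings. Of 186 named gene sums, 111 to 153 stayed called with a library left out and 127 under cyclic loess. Summing only peaks within 10 kb kept 126, lost 52 and turned 8 round, all of them no longer called: Bmp4 at -0.0417, E2f7 at -0.0279, Gsx2 at 0.26, Hmx1 at 0.0452, Irx1 at -0.0470, Krt18 at -0.0737, Pax1 at 0.0638 and Tgif1 at -0.0606 (log2 fold change). A count of 3 reads is 0.237 CPM in early Fra2 replicate 2 and less in the other 5 libraries, and early Fra2 replicates 2 and 3 were the shallowest of the 6.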
